A study of Mus musculus with 8 samples.

Results

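The 39 genes described here encode the complement, coagulation and fibrinolysis proteins that the liver makes for the plasma, with fibrinogen left out. They were taken by symbol from a table of 24197 mouse genes, and all 39 were found in it. Liver RNA came from male mice of the outbred strain CD-1 (Charles River), all hypophysectomized, operated on at 7 weeks of age and 11 weeks old in every group. The Hypox group received no growth hormone (GH), and the other groups were killed 30, 90 or 240 min after 1 intraperitoneal dose of recombinant rat GH (125 ng per g body weight). The labels call the Hypox mice untreated in one place and vehicle-injected in another. Every time was compared with that same Hypox group, so that time of day and handling cannot be told apart from GH, and no intact mice enter these comparisons. Each group held 2 libraries of rRNA-depleted total RNA, each from a pool of 4 mice per the deposited legend. By the sample titles, 1 Hypox library carries another set prefix than the other 7 libraries. What the prefix marks is not stated, and which of the 2 Hypox libraries below it belongs to is not known, so calls against Hypox that are lost without one of them are given as such. A p-value here sets a difference between groups against the spread between pools of mice, not between single mice.

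Complement is a chain of plasma proteases that is started by antibody, by sugars on microbes or spontaneously, and that ends in a pore built into the target's membrane. Coagulation is another protease chain that ends in thrombin and fibrin, and plasmin, the protease of fibrinolysis, dissolves the fibrin again. Hepatocytes secrete most of the proteins of these chains, and GH is known to change liver transcription through the transcription factor STAT5b. Reads in introns come largely from transcripts that are not yet spliced, whereas reads in exons count mainly mature mRNA, so the library type gives 2 measurements of each gene.

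The libraries held 15935303 to 34452570 mapped reads, of which 25.1% to 26.6% fell in exons and 14.98% to 17.7% in introns of genes. Reads per library were recovered from the authors' group means, which does not show which pool is which, so the 2 libraries of a group are named by depth, as deeper and shallower. The shallower 30 min library stood apart with 21250 CPM (reads scaled to the total mapped in a library) of the ribosomal RNA precursor Rn45s against 5988 to 11540 CPM in the other 7. Cish, a known early GH target, lay at 0.546 and 1.38 CPM in the deeper and shallower Hypox libraries and at 4.05 to 15.7 CPM in the 6 GH libraries. Hepatocyte markers were abundant in every library, at a summed 16720 to 24550 CPM over 6 genes. The exonic reads of the 39 genes made up 3.07% to 3.59% of all exonic reads. Their lowest exonic value in a library was 24 reads and their lowest intronic value 2 reads, both of F11. All 39 passed the filter of at least 10 reads in 2 libraries for both kinds of read.

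By length-normalised level, the authors' deposited mean FPKM over the gene body in Hypox, the genes spanned 577 (C3) to 1.92 (F11) with a median of 43.1. C3, the protein on which all complement routes converge, led with 577 FPKM, followed by Plg, the precursor of plasmin, at 252 FPKM, and Vtn, the matrix and complement-binding protein vitronectin, at 235 FPKM. Pros1, the anticoagulant cofactor protein S, had 7.08 FPKM, C6 of the membrane pore 3.03 FPKM and F11, factor XI, 1.92 FPKM. Over 100 FPKM lay 9 genes and under 10 FPKM lay 4. In scaled CPM, the deeper and shallower libraries had 3173 and 2805 exonic CPM of C3 in Hypox, 2412 and 3112 at 30 min, 2863 and 2814 at 90 min, then 3187 and 3688 at 240 min. For Plg these values were 666 and 740, then 693 and 724, 779 and 716, and 594 and 598 CPM. For Vtn they were 401 and 430, then 370 and 434, 422 and 417, and 379 and 381 CPM. The 240 min libraries were the lowest for Plg, whereas those of C3 lay above both Hypox libraries. None of these 3 exonic changes passed limma's test at any time (adjusted p = 0.185 or more).

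The first question was whether one GH pulse changed these genes, and when. Mature transcripts had no call up to 90 min and a few falls at 240 min. Limma called 0 of the 39 genes from exonic reads at 30 min (background 0.0532% of all tested genes higher and 0.0152% lower) and 0 at 90 min (0.63% and 0.213%). At an unadjusted p under 0.05 the counts were 0 and 1 (7.02% and 9.85% of all genes in either direction), and limma-voom called 0 at both times (0.038% and 0.797%). At 240 min 0 were higher and 5 lower (5.72% and 5.54%), which is 12.8% of the 39 lower. These were the contact system genes Klkb1, F11 and F12, the lectin pathway protease gene Masp1, and C4bp, which encodes an inhibitor of the C3 convertase. The median log2 fold change of the 39 genes was -0.13 at 240 min against -0.03 over all 13169 genes tested, and 29 of the 39 fitted values lay below 0. Against 90 min, 1 gene was lower, Klkb1 (background 2.48% lower and 2.78% higher, 0 of the 39 higher). The 5 lower at 240 min became 2 when the deeper 240 min library was omitted and 1 when any other was, and Klkb1 was called each time. Against 90 min it was called only without the deeper 240 min library and with all 8.

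From intronic reads, genes were called at each time. At 30 min 2 of the 39 genes were higher and 1 lower (background 1.39% and 1.02%), at 90 min 4 were higher and 4 lower (3.26% and 4.3%), and at 240 min 1 was higher and 11 lower (4.94% and 6.23%). The share called lower at 240 min was thus 28.2% of the 39. From 90 to 240 min, 2 were higher and 14 lower (5.57% and 5.99%), or 35.9% lower. The median intronic log2 fold change was -0.36 at 240 min against Hypox and -0.35 against 90 min, beside -0.01 and 0.04 over all 12271 genes tested. The comparisons against Hypox share the Hypox libraries, and the last one shares the 240 min libraries with them. In all, 22 genes were called in at least 1 comparison, 5 from exonic and 20 from intronic reads, with C4bp, F11 and Klkb1 called from both. No such count was made over all genes tested, so no background stands beside these numbers. At 30 min the 2 higher became 5 without the deeper 30 min library and 1 without each other one, and the 1 lower was kept only when the shallower 30 min library was omitted. Of the 4 higher at 90 min, 2 were left without the deeper Hypox, 1 without the shallower Hypox and 2 without the shallower 90 min library, and of the 4 lower 2 were left without the deeper Hypox or the deeper 90 min library. The 1 higher at 240 min was kept only without the deeper Hypox library. The counts lower at 240 min, against Hypox and against 90 min, were smaller whichever library of the compared groups was omitted. The intronic counts over all genes tested also became smaller in each left-out run at 90 and 240 min. At 30 min they became larger without the deeper 30 min library, and smaller without each other one.

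**Figure D1:**
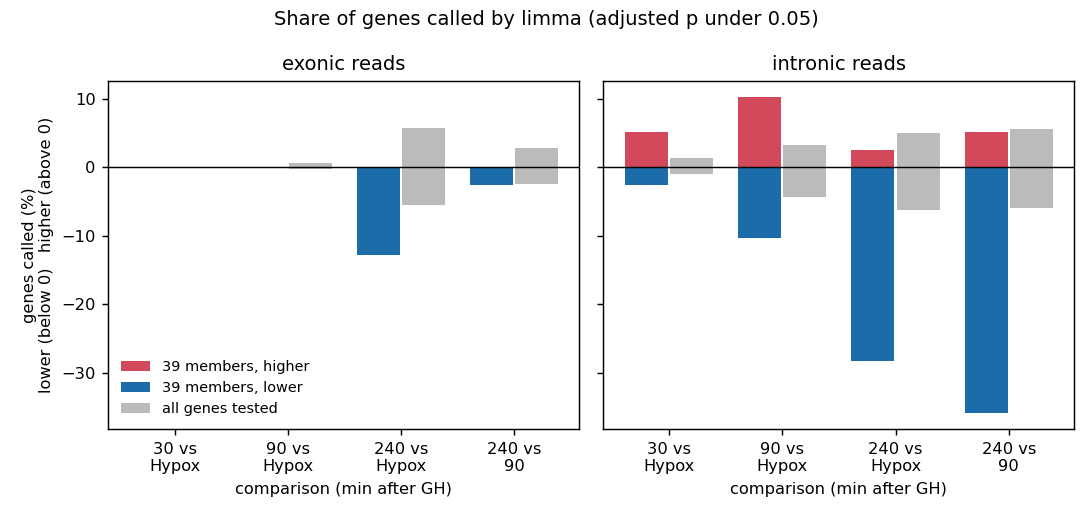
Share of genes called by limma, in percent, above 0 for higher and below 0 for lower, for the 39 genes (coloured) and for all genes tested (grey), in exonic (left) and intronic (right) reads. The largest share of the 39 is 35.9% lower, in intronic reads at 240 min against 90 min, where 5.99% of all genes tested were lower.

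**Figure D2:**
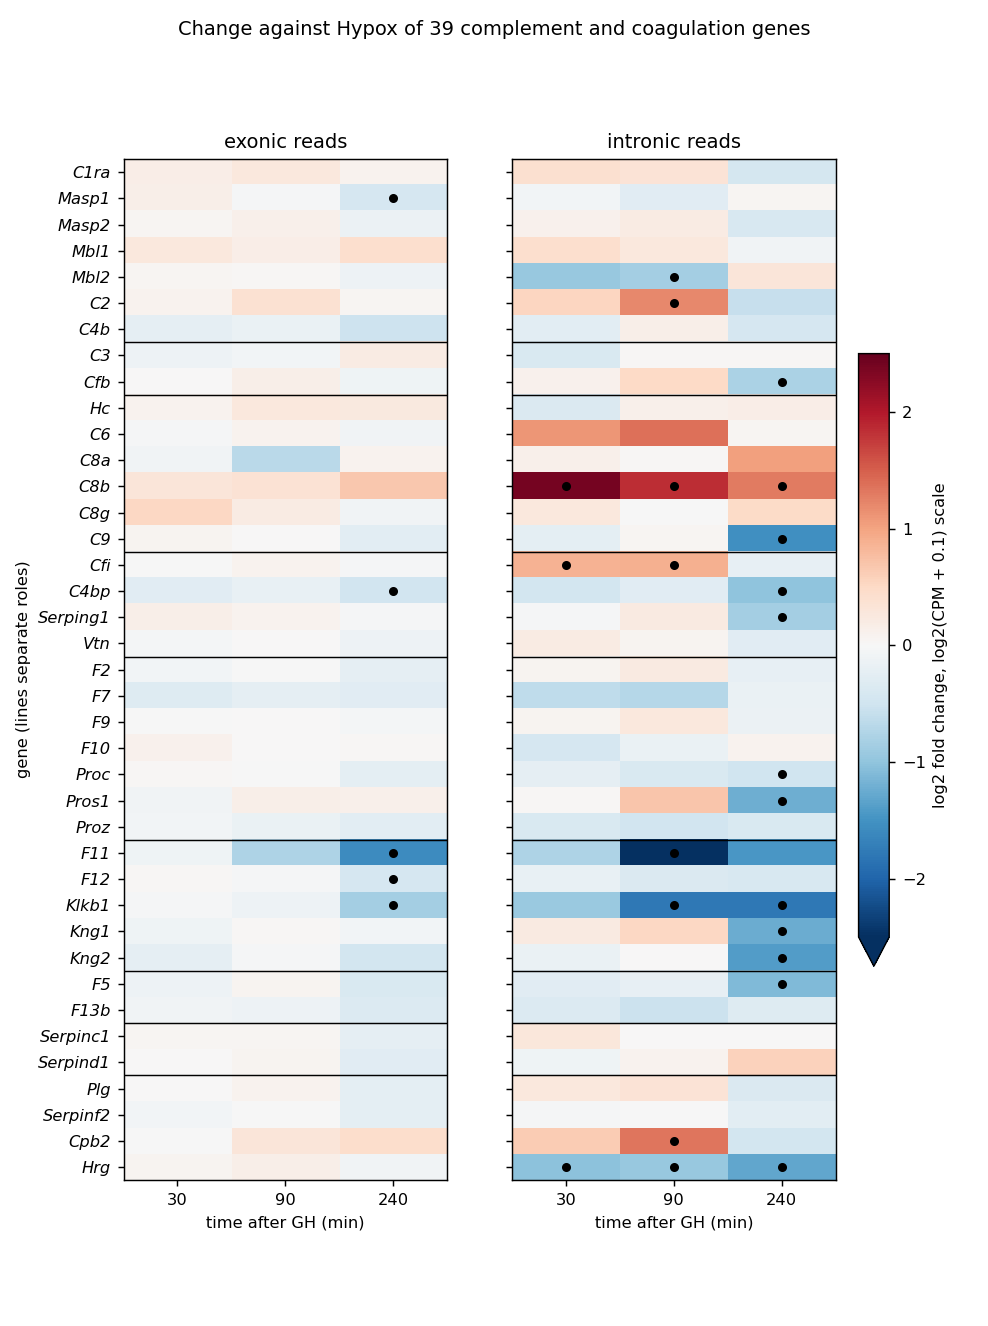
Fitted log2 fold change against Hypox of each gene (rows, lines separate roles) at 30, 90 and 240 min, from exonic (left) and intronic (right) reads on the log2(CPM + 0.1) scale, with a dot where limma's adjusted p was under 0.05. Intronic C8b reached 2.40 at 30 min, and intronic F11 at 90 min, at -3.43, lies beyond the colour scale.

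Among the genes that start complement, C2 had the largest swing. C2 encodes the protease subunit of the classical and lectin pathway convertase. In the deeper and shallower libraries its intronic reads lay at 30.8 and 31.9 CPM in Hypox, 35.9 and 57.3 at 30 min, 72.4 and 71.8 at 90 min, then 17.8 and 24.8 at 240 min. Both 90 min libraries were above all others, and both 240 min libraries were below all others. The rise at 90 min was 2.29-fold (log2 fold change 1.20 ± 0.22 (SE), adjusted p = 0.00839 by limma), and from 90 to 240 min C2 fell 3.42-fold (-1.77 ± 0.22, adjusted p = 0.000982). The rise was lost without the deeper Hypox, the shallower Hypox or the shallower 90 min library (adjusted p = 0.0547, 0.0613 and 0.0544), and the later fall was kept without each of its 4 libraries. Exonic C2 stayed between 49.1 and 73.2 CPM in the 8 libraries. Its fold changes did not pass the test (adjusted p = 0.269 to 0.943). The gene bodies of C2 and Cfb lie 87 bases apart in build mm9, so reads near that boundary are uncertain between them.

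The other initiators split. Mbl2, a mannose-binding lectin, had 6.17 and 7.15 intronic CPM in Hypox, 3.77 and 3.05 at 30 min, 2.93 and 4.54 at 90 min, then 8.99 and 7.48 at 240 min. All 4 libraries of 30 and 90 min were below, and both 240 min libraries above, the Hypox pair. Mbl2 fell by 0.85 ± 0.23 on the log2 scale at 90 min (adjusted p = 0.0483) and rose 2.21-fold from there to 240 min (1.15 ± 0.23, adjusted p = 0.00959). The fall was lost without the deeper Hypox (adjusted p = 0.11), the shallower Hypox (0.276) or the deeper 90 min library (0.294), and with library totals only, no filter or 2 groups alone. The rise was lost without the deeper 90 min (0.0824) or the deeper 240 min library (0.0785).

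Masp1, the lectin pathway protease MASP-1, was lower in exonic reads at 240 min, with 16.5 and 17.2 CPM against 21.1 and 24.4 in Hypox, 24.4 and 25.98 at 30 min and 22.6 and 21.6 at 90 min. The 240 min pair was below all other libraries. The fall of 0.43 ± 0.12 on the log2 scale (adjusted p = 0.0442) was lost whichever of the 4 libraries was omitted (adjusted p = 0.0652 to 0.26). Its intronic reads, 42.4 and 38.05 CPM in Hypox and 40.5 and 43.3 at 240 min, overlapped between these groups (adjusted p = 0.836). Masp2, which encodes the partner protease MASP-2, and C1ra, which encodes the protease C1r of the classical pathway, fell in intronic reads from 90 to 240 min. Masp2 went from 41.7 and 41.9 to 25.3 and 30.0 CPM (-0.60 ± 0.15, adjusted p = 0.0267), after 35.0 and 37.5 in Hypox and 36.9 and 41.5 at 30 min. C1ra went from 4.61 and 3.94 to 2.31 and 2.58 CPM (-0.78 ± 0.22, adjusted p = 0.0418), after 3.29 and 3.37 in Hypox and 3.70 and 5.32 at 30 min. In both genes the 240 min libraries were the lowest of all 8. The call of C1ra was lost whichever of the 4 libraries was omitted (0.106 to 0.207), and that of Masp2 without the deeper 90 min (0.119), the shallower 90 min (0.134) or the deeper 240 min library (0.153). C4b, the C4 precursor, and Mbl1, another mannose-binding lectin, were called in no comparison. C1ra and C4b have the near-identical copies C1rb and C4a, and Masp2 overlaps Tardbp, so their reads are uncertain.

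At the centre of the pathway, C3 was called in no comparison. It had intronic reads of 432 and 334 CPM in Hypox and 318 and 474 at 240 min, which overlapped (adjusted p = 0.956). Cfb, the protease of the alternative pathway, fell in introns at 240 min. Its intronic reads were 40.9 and 35.0 CPM in Hypox, 51.8 and 31.9 at 30 min, 54.6 and 52.1 at 90 min, then 20 and 23.5 at 240 min. The 240 min pair was below all other libraries, and the 30 min pair overlapped Hypox. The fall was 1.74-fold against Hypox (-0.80 ± 0.21, adjusted p = 0.0362), lost whichever of the 4 libraries was omitted (0.087 to 0.2), and 2.45-fold against 90 min (-1.29 ± 0.21, adjusted p = 0.00358), kept in all 4. Exonic Cfb lay between 283 and 358 CPM in the 8 libraries, without a call.

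The terminal genes held both the largest rise and one of the steepest falls. C8b encodes the beta chain of C8, which anchors the growing pore in the membrane. Its intronic reads rose from 12.03 and 12.8 CPM in Hypox to 46.8 and 92.7 at 30 min, then lay at 44.5 and 44.7 at 90 min, then 28.9 and 32.8 at 240 min. The value of 92.7 came from the shallower 30 min library, which stood apart in Rn45s. All 6 GH libraries were above both Hypox libraries. The rise was 5.28-fold at 30 min (2.40 ± 0.25, adjusted p = 0.000822), 3.57-fold at 90 min (1.84 ± 0.25, adjusted p = 0.00199) and 2.47-fold at 240 min (1.30 ± 0.25, adjusted p = 0.0104). The calls at 30 and 90 min were kept without each library. The call at 240 min was lost without the shallower Hypox (adjusted p = 0.0856), the deeper 240 min (0.062) or the shallower 240 min library (0.0694). Exonic C8b was at 29.8 and 43.2 CPM in Hypox, 31.8 and 62.5 at 30 min, 45.3 and 47.0 at 90 min, then 54.0 and 61.1 at 240 min. The 90 and 240 min libraries were above Hypox and the 30 min pair overlapped it. Limma did not call the exonic change at 240 min (0.68 ± 0.27, adjusted p = 0.127), whereas the authors' deposited table gives a ratio of 1.59 with an adjusted p of 0.0366.

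The upstream sequence of C8b is shown because C8b had the largest intronic rise of the 39 genes. The 250 bases before its start in RefSeq (GRCm38.p6, chr4:104766067-104766316, plus strand) run as follows, with the reverse complement of the half-site GTTAAT of the hepatocyte factor HNF1, ATTAAC, in capitals.
C8b: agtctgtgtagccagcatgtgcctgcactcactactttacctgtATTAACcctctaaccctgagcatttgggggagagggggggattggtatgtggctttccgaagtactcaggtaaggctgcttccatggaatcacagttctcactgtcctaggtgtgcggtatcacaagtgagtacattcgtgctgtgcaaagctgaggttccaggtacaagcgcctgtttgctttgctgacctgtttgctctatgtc
The capitals lie 206 to 201 bases before the start. Of 30 genes of the 39 with a window in the table, 8 (26.7%) held GTTAAT on either strand. By window this was 25.8% of 31, against 6.43% of all 32851 windows of this length. The motif ATTGAT of the factor HNF6 was searched as well. It was found in C8a, F2, F9, F12 and Serpinf2, 5 of the 30 genes (16.7%, or 16.1% of 31 windows), against 6.72% of all windows.

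C9, the subunit that polymerises into the pore, moved the other way. C9 had 67.8 and 72.2 intronic CPM in Hypox, 53.6 and 65.0 at 30 min, 66.5 and 77.9 at 90 min, then 23.4 and 25.01 at 240 min. Both 240 min libraries were below the other 6. C9 fell 2.88-fold against Hypox (-1.53 ± 0.16, adjusted p = 0.000709) and 2.96-fold against 90 min (-1.57 ± 0.16, adjusted p = 0.000444), and both calls were kept without each library. Exonic C9, at 43.6 and 70.5 CPM in Hypox and 53.05 and 40.2 at 240 min, overlapped between the groups (adjusted p = 0.477). Hc, the mouse gene of C5, C6, C8a and C8g were called in no comparison. C8a lies 11131 bases from C8b in mm9 with no gene between them. Its intronic reads were 78.5 and 31.3 CPM in Hypox and 86.1 and 119 at 240 min, a pair above Hypox that did not pass (1.03 ± 0.47, adjusted p = 0.183). C6 had 5.33 and 13.4 intronic CPM in Hypox, 10.6 and 31.5 at 30 min, 19.7 and 25.3 at 90 min, then 8.66 and 8.88 at 240 min. Limma did not call the values of C6 at 90 min (1.39 ± 0.47, adjusted p = 0.107), whereas the authors' deposited table gives a ratio of 2.42 with an adjusted p of 0.00596. Exonic C6 was at 5.52 and 12.01 CPM in Hypox, 5.67 and 11.1 at 30 min, 8.47 and 8.79 at 90 min, then 8.35 and 7.09 at 240 min, so that the pools of Hypox and of 30 min differed by more than the group means did. C6 and C8a were among the genes with over 1 log2 unit between the pools of a group.

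**Figure D3:**
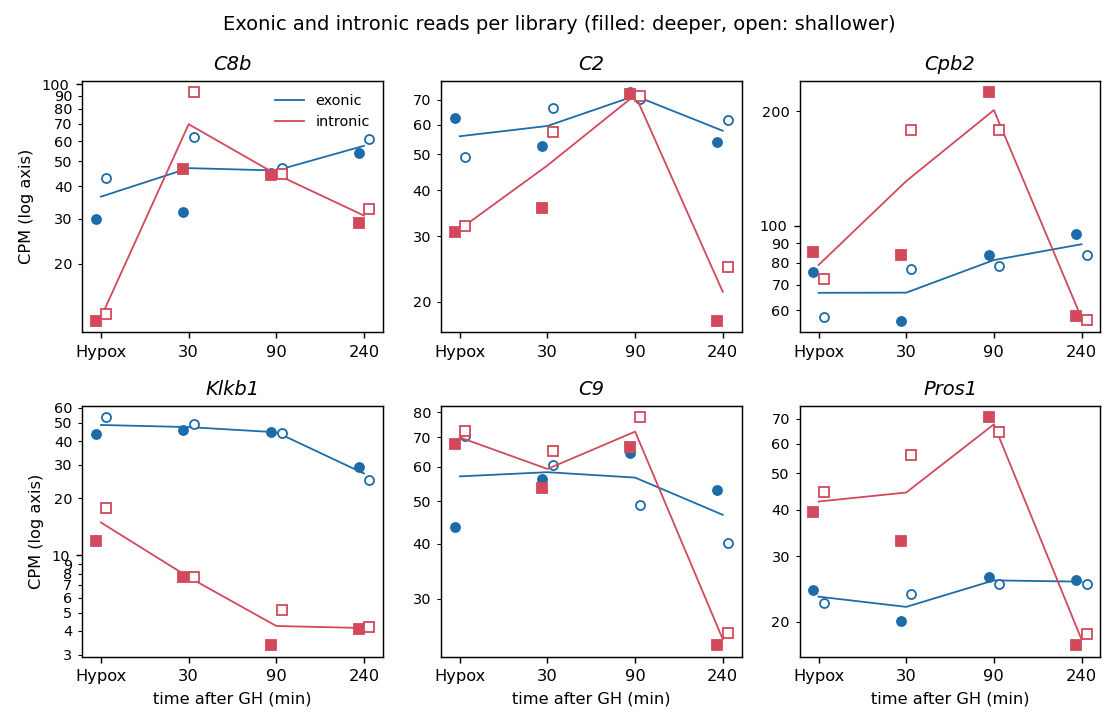
Scaled CPM on a log axis of exonic (blue circles) and intronic (red squares) reads in each library, filled for the deeper and open for the shallower library of a group, with lines through the group means, for 6 genes. Intronic C9 and Pros1 dropped to 23.4 and 25.01 CPM and to 17.3 and 18.6 CPM at 240 min, below the other 6 libraries, while their exonic reads then lay at 53.05 and 40.2 CPM and at 25.95 and 25.3 CPM.

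Of the complement regulators, Cfi rose early and then fell back. Cfi encodes factor I, the protease that cuts C3b and C4b. Intronic Cfi was at 45.3 and 40.7 CPM in Hypox, 72.2 and 86.4 at 30 min, 81.1 and 78.5 at 90 min, then 36.9 and 37.4 at 240 min. The 30 and 90 min libraries were all above Hypox and the 240 min libraries all below. The rise was 1.84-fold at 30 min (0.88 ± 0.15, adjusted p = 0.0136) and 1.86-fold at 90 min (0.89 ± 0.15, adjusted p = 0.00564), followed by a 2.15-fold fall to 240 min (-1.10 ± 0.15, adjusted p = 0.00156). The 30 min call was lost without the deeper Hypox (adjusted p = 0.0666), the shallower Hypox (0.114) or the shallower 30 min library (0.084), and the 90 min call without the shallower Hypox library (0.0631). The last fall was kept without each library. Exonic Cfi lay between 103 and 124 CPM throughout, without a call.

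C4bp and Serping1 fell at 240 min. Intronic C4bp was at 108 and 103 CPM in Hypox, 73.2 and 81.4 at 30 min, 94.9 and 79.3 at 90 min, then 60.8 and 45.2 at 240 min, where it was 2.01-fold lower than Hypox (-1.01 ± 0.18, adjusted p = 0.00808) and 1.65-fold lower than at 90 min (-0.73 ± 0.18, adjusted p = 0.0272). Exonic C4bp was at 128 and 116 CPM in Hypox, 92.8 and 108 at 30 min, 108 and 105 at 90 min, then 97.8 and 78.5 at 240 min (-0.47 ± 0.13 against Hypox, adjusted p = 0.0477). All GH libraries of C4bp, exonic and intronic, were below both Hypox libraries. The exonic call was lost without the deeper Hypox (adjusted p = 0.206), the shallower Hypox (0.119) or the shallower 240 min library (0.213). The intronic call against Hypox was lost without the shallower Hypox (0.0695) or the shallower 240 min library (0.0584), and that against 90 min without the deeper 90 min (0.181), the shallower 90 min (0.0698) or the shallower 240 min library (0.181). Serping1, the C1 inhibitor that also restrains the contact proteases, had 27.1 and 23.4 intronic CPM in Hypox, 20.5 and 29.5 at 30 min, 32.4 and 26.9 at 90 min, then 13.5 and 14.6 at 240 min. The 240 min pair was the lowest. Serping1 fell 1.79-fold against Hypox (-0.84 ± 0.19, adjusted p = 0.0188), lost whichever library was omitted (0.0687 to 0.114), and 2.10-fold against 90 min (-1.07 ± 0.19, adjusted p = 0.0052), lost without the deeper 90 min library (0.0528). Exonic Serping1, at 118 and 150 CPM in Hypox and 122 and 140 at 240 min, overlapped. Vtn was called in no comparison.

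The vitamin K dependent proteins, which need carboxylated glutamates to work, had 0 of 7 genes called from exonic reads at any time. At 240 min 5.72% of all genes tested were higher and 5.54% lower in exonic reads. In introns at 240 min 2 of the 7 were lower, Pros1 and Proc, beside 6.23% of all genes tested. The call of Proc was lost whichever library was omitted. F2, F7, F9 and F10, the genes of prothrombin and factors VII, IX and X, and Proz, the gene of protein Z, had no call from exonic or intronic reads, whereas both genes of the protein C pathway did. Pros1 had 39.4 and 44.6 intronic CPM in Hypox, 32.8 and 56.0 at 30 min, 70.8 and 64.6 at 90 min, then 17.3 and 18.6 at 240 min. The 90 min pair was above, and the 240 min pair below, all other libraries. The fall was 2.33-fold against Hypox (-1.22 ± 0.22, adjusted p = 0.00786) and 3.76-fold against 90 min (-1.91 ± 0.22, adjusted p = 0.000604). The first was lost without the shallower Hypox (adjusted p = 0.0856) or the deeper 240 min library (0.0674) and the second was kept without each library. At 90 min limma did not call Pros1 (0.69 ± 0.22, adjusted p = 0.0896), whereas the authors' deposited table gives a ratio of 1.62 with an adjusted p of 0.00765. Exonic Pros1 was at 24.3 and 22.4 CPM in Hypox, 20.2 and 23.7 at 30 min, 26.4 and 25.3 at 90 min, then 25.95 and 25.3 at 240 min, slightly above Hypox at the last time and not called (adjusted p = 0.515).

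The window before Pros1 is shown because Pros1 had the largest intronic fall from 90 to 240 min and holds a STAT motif. Its 250 bases (RefSeq, GRCm38.p6, chr16:62854057-62854306, plus strand) have the match to TTCNNNGAA in capitals.
Pros1: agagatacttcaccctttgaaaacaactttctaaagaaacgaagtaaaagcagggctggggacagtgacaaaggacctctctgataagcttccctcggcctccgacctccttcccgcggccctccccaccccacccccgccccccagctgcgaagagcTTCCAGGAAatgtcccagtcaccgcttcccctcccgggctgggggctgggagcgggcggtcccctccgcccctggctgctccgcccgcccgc
The match lies 92 to 84 bases before the start. It was found in Masp2, C8a, F9 and Pros1, 4 of 30 genes with a window (13.3%, or 12.9% of 31 windows), against 7.02% of all windows.

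Proc, the zymogen of the anticoagulant protease protein C, had 28.01 and 30.99 intronic CPM in Hypox, 26.04 and 24.2 at 30 min, 22.2 and 23.2 at 90 min, then 20.6 and 21.2 at 240 min. Both libraries of every GH group were below both Hypox libraries. The fall at 240 min was 0.49 ± 0.14 on the log2 scale (adjusted p = 0.0458) and was lost whichever of the 4 libraries was omitted (adjusted p = 0.0766 to 0.271). Exonic Proc, at 82.6 and 87.2 CPM in Hypox and 74.4 and 68.9 at 240 min, was lower in both libraries without passing the test (-0.24 ± 0.11, adjusted p = 0.19). Of F7, whose gene lies beside F10 and Proz in a row on mm9 chromosome 8, limma did not call the intronic values of 18.5 and 17.6 CPM in Hypox and 10.9 and 10.9 at 90 min (-0.72 ± 0.22, adjusted p = 0.0742). The authors' deposited table calls F7 lower there, with a ratio of 0.609 and an adjusted p of 0.00886.

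The contact system, in which factor XII, plasma prekallikrein and high molecular weight kininogen start clotting on negatively charged surfaces, held 3 of the 5 exonic calls. Klkb1 encodes plasma prekallikrein. Intronic Klkb1 was at 11.9 and 17.9 CPM in Hypox, 7.66 and 7.69 at 30 min, 3.36 and 5.14 at 90 min, then 4.07 and 4.21 at 240 min. All 6 GH libraries were below both Hypox libraries. The fall was 3.45-fold at 90 min (-1.79 ± 0.23, adjusted p = 0.00157) and 3.46-fold at 240 min (-1.79 ± 0.23, adjusted p = 0.00195), and at 30 min it did not pass (-0.92 ± 0.23, adjusted p = 0.075). Exonic Klkb1 was at 43.7 and 53.5 CPM in Hypox, 45.8 and 49.0 at 30 min, 44.7 and 44.3 at 90 min, then 29.03 and 24.9 at 240 min. The groups overlapped up to 90 min, and the 240 min pair was below all others. It fell 1.79-fold against Hypox (-0.84 ± 0.13, adjusted p = 0.0044) and 1.65-fold against 90 min (-0.72 ± 0.13, adjusted p = 0.0135). The exonic and intronic calls of Klkb1 against Hypox were kept without each library. The exonic call against 90 min was lost without the deeper 90 min (adjusted p = 0.0928), the shallower 90 min (0.0937) or the shallower 240 min library (0.0784). The authors' deposited table calls Klkb1 lower in introns at 30 min as well (ratio 0.518, adjusted p = 0.0297).

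F11 encodes factor XI, which links the contact proteases to factor IX, and lies 7421 bases from Klkb1 with no gene between them in mm9. Its intronic reads were 2.60 and 3.75 CPM in Hypox, 0.981 and 3.22 at 30 min, 0.305 and 0.119 at 90 min, then 1.10 and 1.04 at 240 min. The 90 min pair, 10 and 2 reads, was the lowest, the 240 min pair was below Hypox and the 30 min pair overlapped it. The fitted fall at 90 min was 10.8-fold (-3.43 ± 0.49, adjusted p = 0.00229), kept without each library. From 90 to 240 min F11 rose 3.93-fold (1.97 ± 0.49, adjusted p = 0.0247), lost without the shallower 90 min (adjusted p = 0.161), the deeper 240 min (0.12) or the shallower 240 min library (0.111) and with a pseudocount of 1 or limma-voom. Exonic F11 was at 3.56 and 5.19 CPM in Hypox, 2.35 and 6.73 at 30 min, 2.43 and 2.52 at 90 min, then 1.75 and 1.09 at 240 min. The 90 and 240 min libraries were below Hypox and the 30 min pair spanned it. F11 fell 2.97-fold at 240 min (-1.57 ± 0.41, adjusted p = 0.0339), lost whichever of the 4 libraries was omitted (adjusted p = 0.0506 to 0.192). In the authors' deposited table exonic F11 at 240 min has a ratio of 0.332 and an adjusted p of 3.19e-05. Limma did not call intronic F11 at 240 min against Hypox, whereas that table gives a ratio of 0.340 with an adjusted p of 0.000187.

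F11 and Klkb1 were the genes of the 39 with the largest intronic falls at 90 min. Of 30 genes with a window, only these 2 held the FOXA motif TGTTTAC (6.67%, or 6.45% of 31 windows, against 3.17% of all windows). Their 250 bases in RefSeq (GRCm38.p6, both on the minus strand, chr8:45262032-45262281 for F11 and chr8:45294836-45295085 for Klkb1) are set side by side to show the match, GTAAACA on this strand, in capitals.
F11: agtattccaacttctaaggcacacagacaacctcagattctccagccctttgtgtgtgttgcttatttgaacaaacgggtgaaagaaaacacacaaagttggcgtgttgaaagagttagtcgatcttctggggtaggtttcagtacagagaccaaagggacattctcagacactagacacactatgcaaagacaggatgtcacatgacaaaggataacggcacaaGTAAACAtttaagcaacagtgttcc
Klkb1: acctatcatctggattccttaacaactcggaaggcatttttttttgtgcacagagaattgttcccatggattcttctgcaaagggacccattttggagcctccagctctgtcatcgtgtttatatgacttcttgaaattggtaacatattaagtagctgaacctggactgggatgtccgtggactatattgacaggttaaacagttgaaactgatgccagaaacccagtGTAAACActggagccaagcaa
The capitals lie 25 to 19 bases before the start of F11 and 21 to 15 bases before that of Klkb1. Binding of a FOXA factor was not measured in these libraries. Whether this motif, or those shown for C8b and Pros1, had a part in the changes was not tested.

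The kininogen genes Kng1 and Kng2, which encode the bradykinin precursor, had among the most intronic reads of the 39 genes. Kng1 was at 288 and 295 intronic CPM in Hypox, 261 and 446 at 30 min, 431 and 405 at 90 min, then 124 and 123 at 240 min. Kng2 was at 299 and 251, then 195 and 307, 295 and 256, and 101 and 106 CPM. In both genes the 240 min pair was far below the other 6 libraries, which overlapped in Kng2 and set the 90 min pair above Hypox in Kng1. The falls against Hypox were 2.36-fold in Kng1 (-1.24 ± 0.25, adjusted p = 0.0116) and 2.65-fold in Kng2 (-1.40 ± 0.23, adjusted p = 0.00571). Against 90 min they were 3.38-fold (-1.76 ± 0.25, adjusted p = 0.00162) and 2.65-fold (-1.41 ± 0.23, adjusted p = 0.00365), kept without each library. The call against Hypox was lost in Kng1 without the shallower Hypox (adjusted p = 0.101), the deeper 240 min (0.085) or the shallower 240 min library (0.067), and in Kng2 without the deeper 240 min library (0.0569). Exonic Kng1, at 552 and 508 CPM in Hypox and 525 and 485 at 240 min, overlapped (adjusted p = 0.798). Exonic Kng2, at 152 and 124 CPM in Hypox, 106 and 130 at 30 min, 140 and 130 at 90 min, then 104 and 96.3 at 240 min, was lowest at 240 min and did not pass (-0.45 ± 0.14, adjusted p = 0.0668). Kng1 and Kng2 are near copies of each other, so their reads are uncertain. F12, factor XII, was at 62.1 and 61.0 exonic CPM in Hypox, 58.8 and 66.4 at 30 min, 62.6 and 58.9 at 90 min, then 45.3 and 46.7 at 240 min. The 240 min pair was below all others (-0.42 ± 0.11 against Hypox, adjusted p = 0.0342), and the call was lost whichever of the 4 libraries was omitted (adjusted p = 0.0815 to 0.134).

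Among the remaining clotting genes, F5 fell in introns. F5 encodes factor V, the cofactor of the prothrombin-cleaving complex, and had 54.8 and 68.1 intronic CPM in Hypox, 43.6 and 57.4 at 30 min, 54.6 and 51.3 at 90 min, then 31.4 and 25.6 at 240 min. The 240 min pair was the lowest. F5 was 2.15-fold below Hypox (-1.10 ± 0.19, adjusted p = 0.00605) and 1.86-fold below 90 min (-0.90 ± 0.19, adjusted p = 0.0117). The first call was lost when the shallower Hypox library was omitted (adjusted p = 0.077), the second without the deeper 90 min (0.0779), the shallower 90 min (0.0577) or the shallower 240 min library (0.0945). Exonic F5 went from 298 and 349 CPM in Hypox to 228 and 267 at 240 min, below Hypox in both libraries without a call (-0.39 ± 0.13, adjusted p = 0.0875). F13b, the carrier subunit of factor XIII, and the thrombin inhibitor genes Serpinc1 (antithrombin) and Serpind1 (heparin cofactor II) were called in no comparison. F5 overlaps Gm16548 and Serpind1 overlaps Pi4ka, and strand use in counting is not stated.

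Of the fibrinolysis genes, Hrg and Cpb2 moved in opposite directions before 240 min. Hrg encodes histidine-rich glycoprotein, which binds plasminogen and heparin. Its intronic reads were 104 and 76.2 CPM in Hypox, 37.0 and 51.7 at 30 min, 41.2 and 51.6 at 90 min, then 40.5 and 32.5 at 240 min. All 6 GH libraries were below both Hypox libraries. The fall was 2.03-fold at 30 min (-1.02 ± 0.22, adjusted p = 0.0374), 1.92-fold at 90 min (-0.94 ± 0.22, adjusted p = 0.0234) and 2.45-fold at 240 min (-1.29 ± 0.22, adjusted p = 0.00607). The first call was lost without the deeper Hypox (adjusted p = 0.251), the shallower Hypox (0.0613) or the deeper 30 min library (0.118). The second was lost without the deeper Hypox (0.164), the deeper 90 min (0.16) or the shallower 90 min library (0.0616), and the last without the shallower 240 min library (0.051). Exonic Hrg, at 383 and 414 CPM in Hypox, 406 and 427 at 30 min, 500 and 386 at 90 min, then 354 and 401 at 240 min, overlapped Hypox at each time.

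Cpb2 encodes a carboxypeptidase that slows fibrinolysis by trimming fibrin. Intronic Cpb2 was at 85.3 and 72.6 CPM in Hypox, 84.0 and 178 at 30 min, 224 and 179 at 90 min, then 57.8 and 56.7 at 240 min. The 30 min pools differed by more than 1 log2 unit, the 90 min pair was the highest and the 240 min pair the lowest. Cpb2 rose 2.54-fold at 90 min (1.35 ± 0.29, adjusted p = 0.0165), lost whichever library was omitted (adjusted p = 0.055 to 0.141), and fell 3.49-fold from there (-1.80 ± 0.29, adjusted p = 0.00324), kept without each. Exonic Cpb2 was at 75.7 and 57.8 CPM in Hypox, 56.4 and 77.2 at 30 min, 84.1 and 78.7 at 90 min, then 95.0 and 84.0 at 240 min, above Hypox at the last 2 times without a call (0.43 ± 0.17 at 240 min, adjusted p = 0.127). Intronic Plg was at 189 and 167 CPM in Hypox, 188 and 239 at 30 min, 227 and 224 at 90 min, then 128 and 149 at 240 min. Plg fell 1.63-fold from 90 to 240 min (-0.71 ± 0.19, adjusted p = 0.0386), lost whichever library was omitted (0.0908 to 0.202). Serpinf2, the plasmin inhibitor alpha-2-antiplasmin, was called in no comparison.

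The next question was whether exonic and intronic reads of a gene changed alike at 240 min. A fit of the exonic minus the intronic log2 value over 11503 genes called 0 of the 39 genes in either direction (background 0.0782% higher and 0.0% lower), while 13 were higher and 4 lower at an unadjusted p under 0.05 (6.34% and 6.9% of all genes tested). With a pseudocount of 1 the fit called 6 higher, C9, Pros1, Kng1, Kng2, Cpb2 and Hrg (1.57% of all genes), and with a filter at a mean of 50 reads it called 4, C9, Pros1, Kng1 and Kng2 (1.97%). The largest difference was that of Pros1, whose exonic change exceeded its intronic change by 1.36 ± 0.22 (adjusted p = 0.0907), followed by C9 (1.26 ± 0.30, adjusted p = 0.158), Hrg (1.21 ± 0.34, adjusted p = 0.207) and Kng1 (1.17 ± 0.21, adjusted p = 0.104). F11 and F12 had differences of -0.11 ± 0.33 and -0.02 ± 0.21. C8a and Serpind1 lay on the other side, at -0.94 ± 0.28 and -0.86 ± 0.25 (adjusted p = 0.227 for both).

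**Figure D4:**
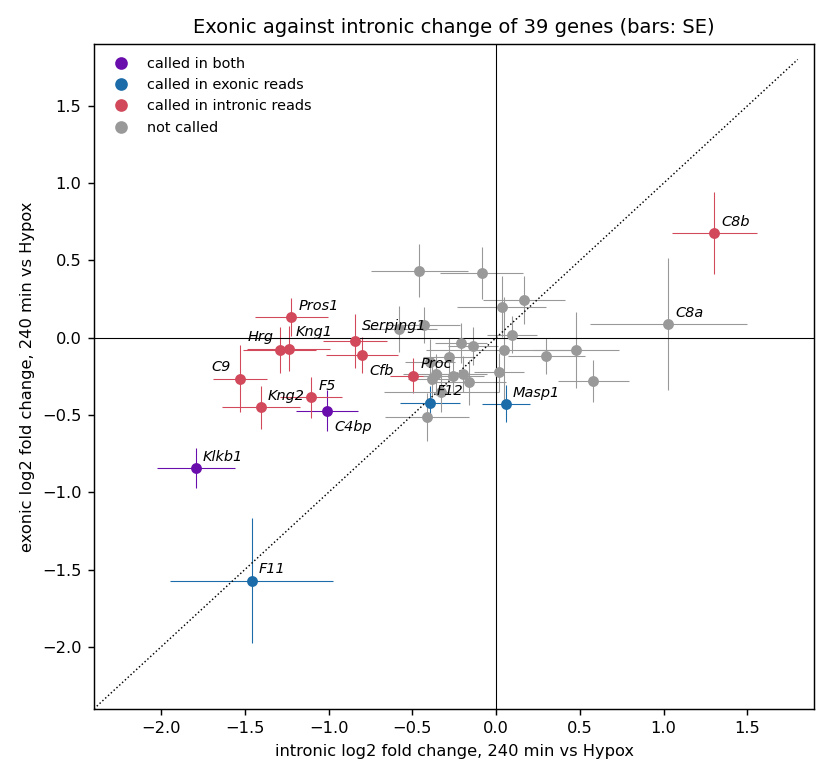
Exonic (vertical) against intronic (horizontal) log2 fold change at 240 min against Hypox for the 39 genes, with limma's standard errors as bars and the dotted line marking equal change. Pros1, Kng1, Hrg and C9 sit left of the dotted line, with intronic falls of 1.22 to 1.53 and exonic values between -0.26 and 0.13, while F11 and F12 lie close to it.

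The 17 genes never called from exonic or intronic reads were Mbl1, C4b, C3, Hc, C6, C8a, C8g, Vtn, F2, F7, F9, F10, Proz, F13b, Serpinc1, Serpind1 and Serpinf2. How many of all genes tested were never called was not counted. The values of these 17 genes follow. Their exonic changes ran from -0.68 to 0.77, both of C8a, and their intronic ones from -1.34 to 1.39, both of C6. The smallest adjusted p among them was 0.0565 for the exonic fall of C4b at 240 min, from 345 and 355 CPM to 250 and 241. The median standard error of the 39 genes was 0.13 for exonic and 0.22 for intronic changes.

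Neighbours on a chromosome had the same call in some places and not in others. Hrg, Kng2 and Kng1 lie in a row on mm9 chromosome 16, 24192 and 29198 bases apart with no gene between, and all 3 were lower in introns at 240 min. At 30 and 90 min Hrg was lower and neither kininogen gene was called. F11 and Klkb1 were both lower in introns at 90 min and in exons at 240 min. C2 rose in introns at 90 min, where its neighbour Cfb had 0.49 ± 0.21 (adjusted p = 0.217), and the test of the difference between these genes was not made. C8b rose in introns at all 3 times and C8a was not called. Intronic C8a had 0.12 ± 0.47 at 30 min and 0.03 ± 0.47 at 90 min, against 2.40 and 1.84 in C8b. At 240 min the changes lay closer, at 1.03 ± 0.47 in C8a and 1.30 ± 0.25 in C8b. The difference between C8a and C8b was not tested either.

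Other genes of these pathways were compared at 240 min against Hypox. Of all genes tested, 5.72% were higher and 5.54% lower there in exonic reads, and 4.94% and 6.23% in introns. Of 20 other complement genes tested in exonic reads 0 were called, and of 17 in introns 1 was higher, C4a, and 3 lower, among them the chaperone clusterin gene Clu (-1.06 ± 0.15, adjusted p = 0.00313) and the protease gene C1rl. Of 23 other coagulation genes tested in exonic reads 2 were higher and 2 lower. Lman1, the cargo receptor that exports factors V and VIII from the endoplasmic reticulum, rose from 61.4 and 59.6 to 99.4 and 104 CPM (0.75 ± 0.11, adjusted p = 0.0039). A2m was higher from very few reads, at 0 and 0.0314 CPM in Hypox and 0.408 and 0.318 at 240 min, and Furin (-0.52 ± 0.13, adjusted p = 0.0248) and F8 (-0.54 ± 0.14, adjusted p = 0.0333) were lower. In introns, Lman1, its partner Mcfd2 and the vitamin K dependent carboxylase gene Ggcx were higher, and the fibrinogen genes Fga, Fgb and Fgg and F8 were lower, of 20 tested. Fgb fell from 183 and 243 to 81.7 and 71.0 intronic CPM (-1.47 ± 0.22, adjusted p = 0.00387), while exonic Fgb was at 1492 and 1076 CPM in Hypox and 2013 and 1818 at 240 min.

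Other plasma proteins of hepatocytes had 0 of 34 exonic calls at 240 min against Hypox (5.72% of all genes tested higher and 5.54% lower). In introns 5 of 33 tested were higher and 10 lower (4.94% and 6.23%). The serum amyloid genes Saa1 and Saa2 fell from 33.2 and 34.8 to 1.17 and 1.495 CPM and from 24.99 and 23.2 to 0.624 and 0.725 CPM. Saa4, the haptoglobin gene Hp, the hemopexin gene Hpx and Itih4 were also lower (log2 fold changes of -2.34, -2.47, -1.74 and -1.88, adjusted p = 0.00197, 0.00204, 0.00222 and 0.00313). Of the 39 genes, whose list leaves these proteins out, 11 (28.2%) were lower in introns, beside the 10 of 33 here. A fall in introns at 240 min against Hypox was thus not particular to the 39 genes. From 90 to 240 min, 9 of these 33 genes were higher and 9 lower in introns (5.57% and 5.99% of all genes tested). Their median log2 fold change was 0.12. Of the 39 genes 2 were then higher and 14 lower, with a median of -0.35.

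Cell type markers were measured beside these results, since in bulk liver fewer cells of a type cannot be told apart from less RNA per cell. At 240 min the summed exonic CPM of 6 hepatocyte markers was 16720 to 17940, below 23640 to 24550 in Hypox, with 1 of 6 called, Tat, lower. Alb made up most of that sum, with 19630 and 20100 CPM in Hypox and 14210 and 13580 at 240 min, and was not called (adjusted p = 0.24 by limma). Cps1 was at 1769 and 1985 CPM in Hypox and 1884 and 1657 at 240 min, and Hnf4a at 192 and 167 against 174 and 159, so that both overlapped. Of 6 sinusoidal endothelial markers Stab2 and Kdr were lower, with sums of 118 to 127 CPM against 164 to 172 in Hypox. Of 5 cholangiocyte markers Spp1, Krt19 and Krt7 were higher, at sums of 14.5 to 22.7 CPM against 7.10 to 9.81. Of 8 Kupffer cell markers 0 were called (44.7 to 62.5 CPM against 63.2 to 80.5), as of 6 stellate cell markers (108 to 113 against 123 to 125), 2 neutrophil markers and 5 red blood cell markers. Of 5 platelet and megakaryocyte markers only Itga2b had enough reads to be tested. It was not called, at 0.408 to 0.636 CPM against 0.692 to 0.747 in Hypox. The others had few reads, and Gp9 had 0 in every library. In introns, the hepatocyte sum was 1340 to 1603 CPM in Hypox, 1181 to 1754 at 30 min, 836 to 1242 at 90 min and 1246 to 1482 at 240 min. It overlapped Hypox at 30 and 240 min and was below it at 90 min, and Tat and Hnf4a were lower at 30 and 90 min and Tat at 240 min. From 90 to 240 min, where 14 of the 39 genes were lower, that sum was higher in both libraries and 3 of 6 markers, Hnf4a, Tat and Ttr, were higher. The endothelial intronic sum was 79.1 to 83.6 CPM at 240 min against 104 to 110 in Hypox, with 0 of 6 called. The part of these markers in the results was not tested.

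The authors' own test, on the gene body and on introns, called fewer genes than limma in exonic reads at 240 min, more in introns at 30 and 90 min, and as many in introns at 240 min. Over the gene body the authors' deposited table calls 0 of the 39 genes at 30 min (0.19% of all listed genes higher and 0.244% lower) and 0 at 90 min (0.913% and 0.686%). At 240 min it calls 1 higher, C8b, and 2 lower, F11 and Klkb1 (2.81% and 2.51%). Over introns it calls 2 higher and 3 lower at 30 min (0.884% and 0.967%), 6 and 5 at 90 min (2.11% and 3.09%), and 1 and 11 at 240 min (2.41% and 3.62%). Of the 5 exonic calls of limma at 240 min, 2 were made in the same direction there. Of the intronic calls, 3 of 3 at 30 min, 8 of 8 at 90 min and 11 of 12 at 240 min were, with Proc the exception. Intronic F11 at 240 min was called lower there and not by limma.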

How the data were processed

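Per the submitters' processing notes, reads were handled with TopHat2, featureCounts and edgeR on build mm9, versions not given. Per the file headers, the authors deposited mean FPKM per group over the gene body and a mean intronic signal per group, also as FPKM, with a ratio and an adjusted p-value for each time against Hypox. Strand use in counting is not stated.

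Whole reads per library were recovered from the deposited FPKM: a group mean is the sum of 2 whole numbers, divided by library total and gene length. Of 18359 genes above 0, 18359 (100.0%) gave whole reads, including 39 of 39 described here, and 0 of 1000 did with totals moved by 1000 reads. On simulated data 1497 of 1498 genes were exact. Totals are taken as mapped reads.

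Reads became CPM after median-of-ratios scaling on the genes averaging 50 reads or more (0.916 to 1.05 exonic, 0.859 to 1.06 intronic). Genes reaching 10 reads in 2 or more libraries, 13169 exonic and 12271 intronic, were fitted with limma 3.58.1 (R 4.3.3, trended variance) on log2(CPM + 0.1), all 8 libraries, group as the only term, with two-sided p-values adjusted across every tested gene (Benjamini-Hochberg), called at an adjusted p under 0.05. A fold is on this scale and understates changes of low genes. The fit had 4 residual degrees of freedom, and ± is its standard error. With 1 library left out, the lone library is assumed to vary like the others.

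Genes with library values are those called in any comparison and the 3 highest and 3 lowest by FPKM, and up to 6 called genes per other list. Those of C8a, F7, C4b and Proz were added after their values were seen. The 39 genes, the lists, motifs and tests were chosen with earlier results of these data known. Other settings were a pseudocount of 1, library totals only, no filter or a mean of 50 reads, limma-voom, the 2 groups alone and each library left out. The values of 1 gene of the other complement genes are not reported here.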

Additional observations from a re-analysis of the deposited data

How the results depend on the processing

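Of 45 named calls, 15 were kept with each library left out, 33 in every other setting run, and 0 changed direction. Beside those of Mbl2 and intronic F11, these calls were lost in other settings. Library totals only, no filter and the 2 groups alone each lost exonic Masp1 and C4bp and intronic Proc. Exonic F12 was lost with library totals only and the 2 groups alone, and exonic F11 with no filter and limma-voom. Intronic Cfb against Hypox was lost with library totals only and no filter. At 30 min the 2 groups alone lost Cfi and Hrg, and no filter Hrg. From 90 to 240 min no filter lost C1ra and Plg. No paired analysis was possible because the deposited columns are group means and carry no pool numbers, so the replicate block was not run. The count of the 39 genes lower in exonic reads at 240 min, 5, was 2 with library totals only, with no filter and with the 2 groups alone, and 1 to 2 with a library left out. Against 90 min it was 0 to 1. In introns at 30 min, the 2 higher became 1 in the 2 groups alone and 1 to 5 with a library left out. The 1 lower became 3 with library totals only, 0 with no filter or the 2 groups alone, and 0 to 1 with a library left out. At 90 min the left-out counts were 1 to 3 higher and 2 to 3 lower. At 240 min they were 0 to 1 higher and 4 to 8 lower against Hypox, and 1 higher and 8 to 11 lower against 90 min. In that last comparison the 2 higher became 1 with a pseudocount of 1, a mean of 50 reads or limma-voom. With a library left out, the calls over all genes tested also became fewer at 90 and 240 min. Genes whose exonic change exceeded the intronic one numbered 0, but 6 with a pseudocount of 1 and 4 at a mean of 50 reads. Depth limits F11 most, at 2 to 10 intronic reads per library at 90 min, and it was not tested in introns at a mean of 50 reads.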
